A study of Mus musculus with 6 samples.

Results

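The 60 genes described here drive or restrain cell division: 13 act in G1 control, 13 in S phase, 22 in mitosis and 12 as inhibitors of the cycle. They were taken from a list of symbols, and a probe stood for a gene when its transcript accession carried that symbol. The array held 82 such probes, and 57 of the 60 genes had a probe well above background on every array of at least 1 genotype and were tested, among 24245 genes and unnamed probes tested in all. The 3 others were the G1 kinase gene Cdk6 and the inhibitor gene Cdkn2a, above background on 0 of 6 arrays, and the cyclin gene Ccne2, above background on 2 of 3 arrays of each genotype.

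RNA came from endothelial cells of mouse skin, isolated by fluorescence-activated sorting and not treated afterwards. There were 3 samples labelled as APJ knockout, APJ being the apelin receptor encoded by Aplnr, and 3 wild-type samples, each numbered as a mouse and all of strain C57Bl/6J. The labels describe neither how the allele was made nor the surface markers of the sort, and age stands only in the names of the scanner files, as an embryonic stage. Whether a sample pooled several animals is not stated, so p-values measure the spread between these 6 samples.

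A cell that commits to division in G1 does so through cyclin D with Cdk4 or Cdk6 and cyclin E with Cdk2, which phosphorylate the retinoblastoma proteins and free E2F transcription factors. E2F then switches on the genes of DNA replication, whereas the mitotic genes are held down and later induced through the DREAM and MYB-FOXM1 complexes, which bind a promoter element called the CHR. In growing vessels, endothelial cells alternate between proliferation and quiescence, and the inhibitors p21 and p27 hold arrested cells.

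Sequence was compared first, because it was not used to choose the genes. RefSeq promoters (GRCm38.p6, 250 bases before to 50 after the annotated start) were found for 48 of the 60 genes, 54 promoters in all. They were searched on both strands for 4 forms of the E2F site (TTTCCCGC, TTTGGCGC, TTTCGCGC and TTTGCCGC) and for 2 forms of the CHR (TTTGAA and TTCGAA). An E2F form occurred in 6 of the 12 S-phase promoters and 5.56% of the 18 mitotic ones, against 2.26% of all 32851 promoters. A CHR form occurred in 72.2% of the 18 mitotic promoters and in 2 of the 12 S-phase promoters, against 19.2% of all. Among G1 control genes 4 of 11 promoters held an E2F form and 2 of 11 a CHR form. Among inhibitors the E2F forms were in 3 of 13 and the CHR forms in 1 of 13. A match is a description of letters and not of binding, and arrays of mRNA do not measure it.

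The 180 bases before the start of 3 genes show both kinds, with the matched letters in capitals. Mcm5 (chr8:75109329-75109508, plus strand) and Mcm7 (chr5:138171884-138172063, minus strand) encode subunits of the MCM replicative helicase, and Mki67 (chr7:135716380-135716559, minus strand) encodes the proliferation antigen Ki-67. In Mcm5, 2 E2F matches on opposite strands overlap in 1 run. Mcm7 holds a CHR form followed by an E2F form, and Mki67 holds 2 CHR forms and no E2F form. Another RefSeq promoter of Mcm7 held neither form, and the one with more matches is printed.
Mcm5: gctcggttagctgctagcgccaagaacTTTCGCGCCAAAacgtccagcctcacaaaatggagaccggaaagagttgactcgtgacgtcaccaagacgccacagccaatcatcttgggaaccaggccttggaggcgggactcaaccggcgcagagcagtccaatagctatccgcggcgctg
Mcm7: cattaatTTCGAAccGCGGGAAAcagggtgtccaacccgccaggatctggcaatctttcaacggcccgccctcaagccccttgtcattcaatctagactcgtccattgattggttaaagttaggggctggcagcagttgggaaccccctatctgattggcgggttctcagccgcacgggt
Mki67: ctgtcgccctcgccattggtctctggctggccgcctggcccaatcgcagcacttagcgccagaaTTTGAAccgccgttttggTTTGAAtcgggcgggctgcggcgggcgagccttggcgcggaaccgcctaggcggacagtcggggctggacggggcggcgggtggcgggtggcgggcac

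Aplnr fell in the knockout samples, in the direction of their labels. Its log2 signal over the array's 75th percentile was 1.89, 1.71 and 2.26 on the APJ knockout arrays, against 3.35, 3.77 and 3.82 on the wild-type arrays. The knockout signal was thus 30.9% of the wild-type signal and not absent. The difference was -1.69 ± 0.19 (SE, n = 3 each, limma adjusted p = 0.0236), and blocking on the replicate number gave an adjusted p of 0.0787. Where this 1 probe lies relative to the change in the allele is not known here. On each array 50.30% to 57.97% of probes exceeded background by the scanner software's call, and precision is limited by having 6 arrays. All 15 pan-endothelial markers, Pecam1 and Cdh5 among them, were above background on all 6 arrays. Their summed signal, in multiples of the array's 75th percentile, was 1133 to 1227 in the knockout and 1106 to 1216 in wild type.

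Of the 57 tested genes, 1 passed the test between genotypes. Stmn1, which encodes the microtubule-destabilising protein stathmin, fell in APJ knockout cells. No gene of the list rose, where 0.367% of everything tested did, and 1 of 57 fell, where 0.186% of everything tested did. At an unadjusted p under 0.05 the list held 2 of 57 genes, Stmn1 and the inhibitor gene Cdkn1b, where 8.02% of everything tested did so. Arrays of the genotypes did not overlap for 2 genes higher in the knockout (E2f2 and Cdkn1b) and for 1 lower (Stmn1). That pattern occurred for 6.37% of everything tested in the higher direction and 5.86% in the lower. Across all tested genes and probes 89 rose and 45 fell. Blocking on the replicate number left 4 that rose and 1 that fell, with no gene of the list among them. Blocking on the slide left Stmn1 as the 1 listed gene that fell (adjusted p = 0.0392) and none that rose, where 0.417% of everything tested fell and 0.763% rose.

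The genotype differences of the other genes were small. The median over the 57 genes was 0.02 on the log2 scale, with 32 above 0 and 25 below, beside a median of -0.02 and 43.6% above 0 for everything tested. The median size of a difference, sign aside, was 0.0662 for the list and 0.0888 for everything tested, and the median SE was 0.107 and 0.128. For 50 of the 57 genes the 95% interval of the difference lay within 0.5 log2 units of 0, which held for 62.9% of everything tested. The 7 genes with wider reach were Stmn1, Aurkb, Cenpe, Myc, Cdkn1a, Gmnn and Rbl1. These intervals bound each gene's average over the sorted cells. In such bulk samples fewer dividing cells and less RNA per dividing cell cannot be told apart.

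**Figure D1:**
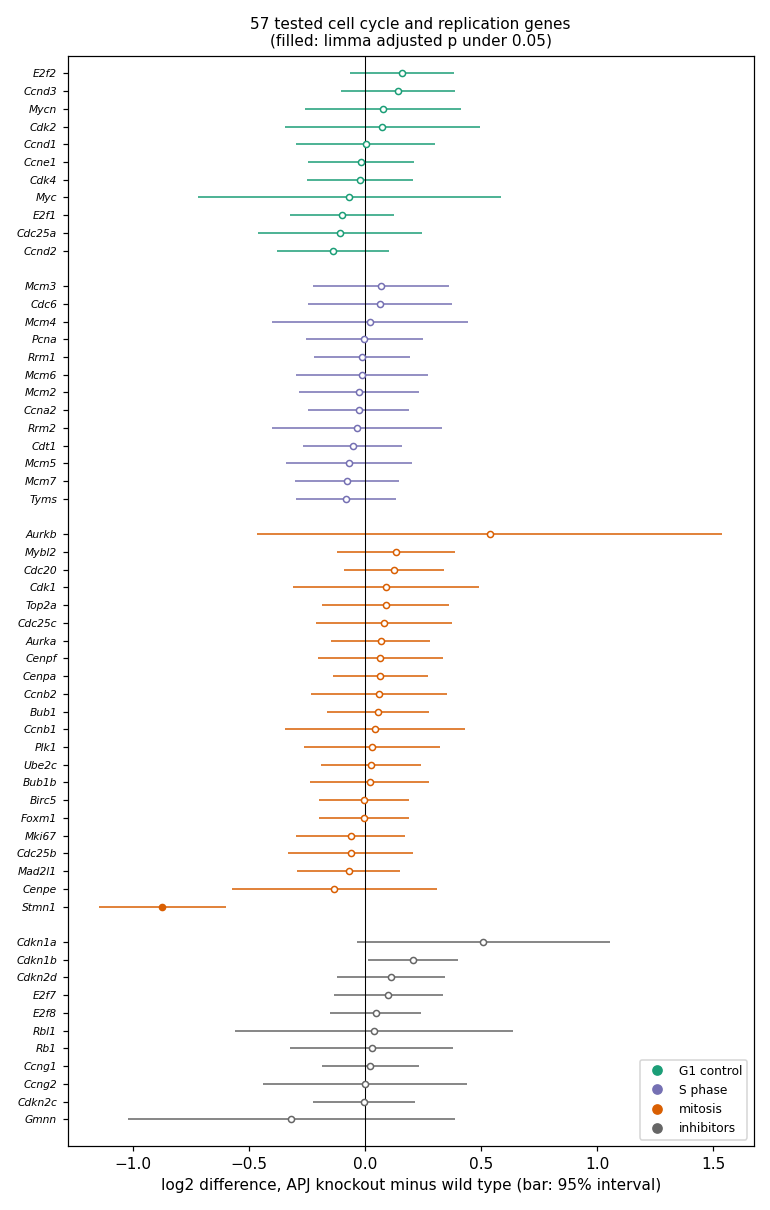
Log2 difference between APJ knockout and wild type for each of the 57 tested genes, by phase, with its 95% interval as a bar; filled points passed the test. Stmn1 at -0.87 stands away from 0, and the other 56 points lie between -0.32 and 0.54.

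Stmn1 (probe accession NM_019641) lies on chromosome 4, and stathmin binds tubulin dimers and is phosphorylated as cells enter mitosis. Its log2 signal was 6.73, 6.89 and 6.75 on the knockout arrays, against 7.78, 7.47 and 7.73 on the wild-type arrays. All 3 knockout arrays lay below all 3 wild-type arrays. The means were 6.79 ± 0.08 in APJ knockout and 7.66 ± 0.17 in wild type (SD, n = 3 each), so the knockout signal was 54.7% of the wild-type signal. The difference was -0.87 ± 0.11 (SE, 95% interval -1.14 to -0.60, limma adjusted p = 0.0374). It was -0.82 within slide 1, which held replicates 1 and 2 of both genotypes, and -0.98 within slide 2, which held replicate 3 of both. An exact two-sided permutation test gave p = 0.1, the smallest that 3 arrays against 3 allow.

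A second probe for Stmn1 did not show a difference of that size. It read 6.27, 6.38 and 6.33 in knockout samples, against 6.49, 6.49 and 6.44 in wild-type samples. These arrays did not overlap either. The difference was -0.14 ± 0.08 (SE, 95% interval -0.34 to 0.05, adjusted p = 0.862 in a limma fit of all 28368 tested probes), a signal 90.5% of that in wild type. The intervals of the 2 probes did not overlap. Within an array, the brighter probe exceeded the other by 0.42 to 0.51 on the knockout arrays and by 0.98 to 1.30 on the wild-type arrays. The 2 probes therefore changed unequally, and which transcripts each detects was not tested.

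The Stmn1 call depended on several choices. Blocking on the replicate number gave it an adjusted p of 0.111, averaging both probes gave a difference of -0.51 (0.0888), and leaving out any 1 of the 6 arrays ended the call (0.0917 to 0.170). Other genes near Stmn1 also differed, a comparison chosen after the values were seen. Of the 25 protein-coding genes on each side 39 were tested, and 2 of the 39 fell, beside 0.186% of everything tested. These were Cep85, a centrosomal gene (-0.97), 12 genes before Stmn1, and Clic4, a chloride intracellular channel gene (-0.78), 13 genes after it. An unadjusted p under 0.05 was reached by 12 of the 39, in both directions, beside 8.02% of everything tested. The genes next to Stmn1 took opposite signs, Pafah2 at -0.42 and Paqr7 at 0.53, and neither passed. On chromosome 4 as a whole 16 of 853 named genes passed (1.88%), some higher and some lower in the knockout, beside 0.572% of all named genes. The other 3 listed genes on this chromosome did not pass: Cdc20 at 0.13, Cdkn2c at -0.00496 and E2f2 at 0.16. Whether the neighbourhood bears on the Stmn1 value was not tested.

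**Figure D2:**
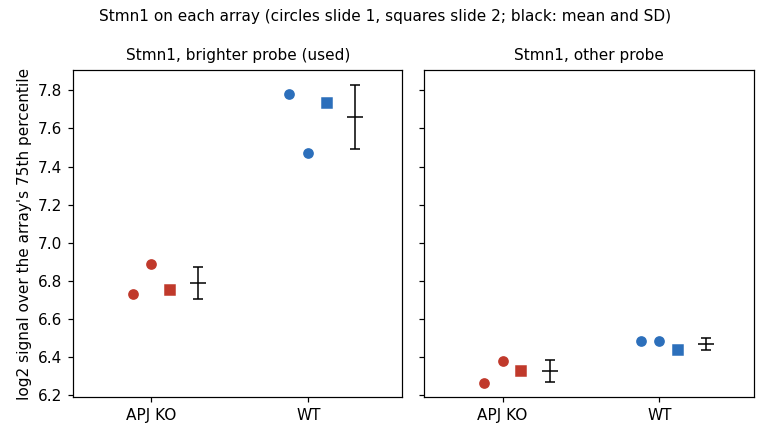
Log2 signal of the 2 Stmn1 probes on each array, with knockout left of wild type, circles for slide 1, squares for slide 2, and the mean and SD in black. The brighter probe separated the genotypes by 0.87 log2 units and the other by 0.14.

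The remaining mitotic genes lay close together. Of the 21 other than Stmn1, Aurkb stood apart, and the 20 others differed by -0.13 to 0.13. Mki67 read 5.53, 5.32 and 5.49 in APJ knockout, against 5.44, 5.59 and 5.49 in wild type, overlapping groups with a difference of -0.06 ± 0.10. Its second probe gave -0.07. Ccnb1, the cyclin that activates Cdk1 at mitotic entry, read 4.32, 4.32 and 3.90 in the knockout, against 4.32, 4.17 and 3.93 in wild type, a difference of 0.04 ± 0.16. On both sides the slide 2 array was the lowest, and 3 Ccnb1 probes gave 0.04 to 0.09. Its partner Cdk1 differed by 0.09 and Ccnb2 by 0.06.

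Genes of the spindle and of chromosome segregation were as near to 0. Top2a, the topoisomerase that untangles sister chromatids, differed by 0.09, and the kinase gene Plk1 by 0.03. The checkpoint genes Bub1, Bub1b and Mad2l1 differed by 0.06, 0.02 and -0.07. Cenpa, the centromeric histone, differed by 0.07, the kinetochore genes Cenpe and Cenpf by -0.13 and 0.07, and Aurka, the spindle pole kinase, by 0.07. The activator gene Cdc20 and the ubiquitin-conjugating enzyme gene Ube2c differed by 0.13 and 0.03. Birc5, a subunit of the chromosomal passenger complex, differed by -0.0023. The phosphatase genes Cdc25b and Cdc25c, which activate Cdk1, differed by -0.06 and 0.08. Foxm1, the transcription factor of mitotic genes, differed by -0.0036. Mybl2, the MYB factor that partners with it, read 3.79, 4.03 and 3.99 in the knockout, against 3.70, 3.85 and 3.87 in wild type, a difference of 0.13 ± 0.11 with overlapping arrays.

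Aurkb, the kinase of the chromosomal passenger complex, had the highest difference of the list and rested on 1 array. Its log2 signal was 0.25, -1.39 and -0.74 in knockout samples, against -1.47, -1.28 and -0.75 in wild-type samples. Knockout replicate 1 was far above the other arrays, knockout replicate 2 lay within the wild-type range, and knockout replicate 3 matched the highest wild-type array to within 0.0060. The difference was 0.54 ± 0.42 (SE, 95% interval -0.46 to 1.54), with 0.80 within slide 1 and 0.0060 within slide 2, and without that array it was 0.10. The sum of 11 erythroid markers, tested or not, was 608 multiples of the percentile on that array and 334 to 581 on the other 5. The 581 belonged to wild type replicate 2, where Aurkb read -1.28. The part of erythroid cells in the Aurkb value was not tested.

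For all 13 S-phase genes the 95% interval of the difference lay within 0.5 log2 units of 0, which held for 10 of 11 G1 genes, 19 of 22 mitotic genes and 8 of 11 inhibitor genes. The S-phase differences ran from -0.08 to 0.07 with 3 above 0 and 10 below, and no 95% interval reached beyond -0.40 or 0.44. Of the 6 genes Mcm2 to Mcm7, which together form the helicase ring, 4 were below 0, and the range was -0.08 to 0.07. Mcm5 read 4.60, 4.84 and 4.87 in the knockout, against 4.81, 4.75 and 4.96 in wild type, a difference of -0.07 ± 0.11. Mcm7 read 4.92, 5.09 and 5.14 in the knockout, against 5.10, 5.17 and 5.11 in wild type, a difference of -0.08 ± 0.09. The genotypes overlapped in both, knockout replicate 1 being the lowest array each time.

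Nucleotide synthesis and the replication fork gave the same picture. Tyms, which makes thymidylate, read -1.07, -1.03 and -1.06 in the knockout, against -0.95, -0.88 and -1.08 in wild type. The arrays overlapped because wild type replicate 3 was as low as the knockout arrays, and the difference was -0.08 ± 0.09. The 2 ribonucleotide reductase genes Rrm1 and Rrm2 differed by -0.01 and -0.03. Pcna, the sliding clamp of DNA polymerases, read 5.81, 5.99 and 5.84 in the knockout, against 6.03, 5.79 and 5.82 in wild type, a difference of -0.0027 ± 0.11. The licensing factors Cdc6 and Cdt1 differed by 0.07 and -0.05, and Ccna2, the cyclin of S phase and G2, by -0.03.

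In the G1 control group 11 of 13 genes were tested, 5 were above 0 and 6 below, and none passed. The 3 D-type cyclins, which relay growth signals to Cdk4 and Cdk6, took different signs. Ccnd1 read 6.11, 6.16 and 6.39 in APJ knockout, against 6.07, 6.20 and 6.38 in wild type, a difference of 0.0027 ± 0.12. Its highest array in each genotype was the one on slide 2. Ccnd2 read 3.86, 3.88 and 4.02 in the knockout, against 3.95, 4.04 and 4.18 in wild type, a difference of -0.14 ± 0.10. Ccnd3 read 5.86, 6.08 and 6.00 in the knockout, against 5.72, 5.93 and 5.86 in wild type, a difference of 0.14 ± 0.10. Neither Ccnd2 nor Ccnd3 separated the genotypes completely, but each had 1 sign in all 3 pairs of same-numbered samples. The arrays showed no pairing by number beyond the slide, so these pairs add little. Within pairs Ccnd3 differed by 0.14 to 0.15 and Ccnd2 by -0.16 to -0.09. With the replicate block the SE was 0.05 for both, and the limma adjusted p of 0.359 for Ccnd3 and 0.388 for Ccnd2 did not pass. In the whole list 13 of 57 genes were higher in all 3 pairs and 6 were lower, beside 17.1% and 22.3% of everything tested.

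E2f2, an activating E2F factor, was the only G1 gene whose arrays did not overlap. It read 2.943, 3.089 and 3.176 in the knockout, against 2.899, 2.887 and 2.942 in wild type. Knockout replicate 1 and wild type replicate 3 were thus nearly tied. The difference was 0.16 ± 0.09 (SE, n = 3 each, limma adjusted p = 0.888). E2f1, of the same class, differed by -0.10. The kinase genes Cdk2 and Cdk4 differed by 0.08 and -0.02, Ccne1 by -0.02, the phosphatase gene Cdc25a by -0.11, and the growth regulators Myc and Mycn by -0.07 and 0.08. Myc was among the least precise, with an interval of -0.72 to 0.58.

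Among the inhibitors 11 of 12 genes were tested, 9 were above 0 and 2 below, and none passed. Cdkn1b, which encodes the Cdk inhibitor p27, had the smallest p of the group. It read 3.134, 3.103 and 3.049 in knockout samples, against 2.936, 2.885 and 2.841 in wild-type samples, with every knockout array above every wild-type array. The difference was 0.21 ± 0.08 (SE, 95% interval 0.01 to 0.40), and it was 0.21 within each slide. Its limma adjusted p of 0.570 did not pass. Cdkn1a, which encodes p21, the inhibitor induced by p53, read -0.04, 0.48 and 0.37 in the knockout, against -0.23, -0.63 and 0.14 in wild type. Knockout replicate 1 lay below wild type replicate 3, so the groups overlapped. The difference was 0.51 ± 0.23 (SE, limma adjusted p = 0.682), 0.65 within slide 1 and 0.22 within slide 2. A second Cdkn1a probe was above background on 1 of 6 arrays and was not tested.

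Gmnn encodes geminin, which blocks relicensing of origins by binding Cdt1. It read 1.44, 0.79 and 1.92 in the knockout, against 1.54, 1.56 and 2.00 in wild type, a difference of -0.32 ± 0.29. Knockout replicate 2 was the lowest array, and the slide 2 array was the highest of each genotype. The INK4 genes Cdkn2c and Cdkn2d differed by -0.0050 and 0.11, and the retinoblastoma family genes Rb1 and Rbl1 by 0.03 and 0.04. The repressive E2F genes E2f7 and E2f8 differed by 0.10 and 0.05, and the cyclin G genes Ccng1 and Ccng2 by 0.02 and 0.0010.

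**Figure D3:**
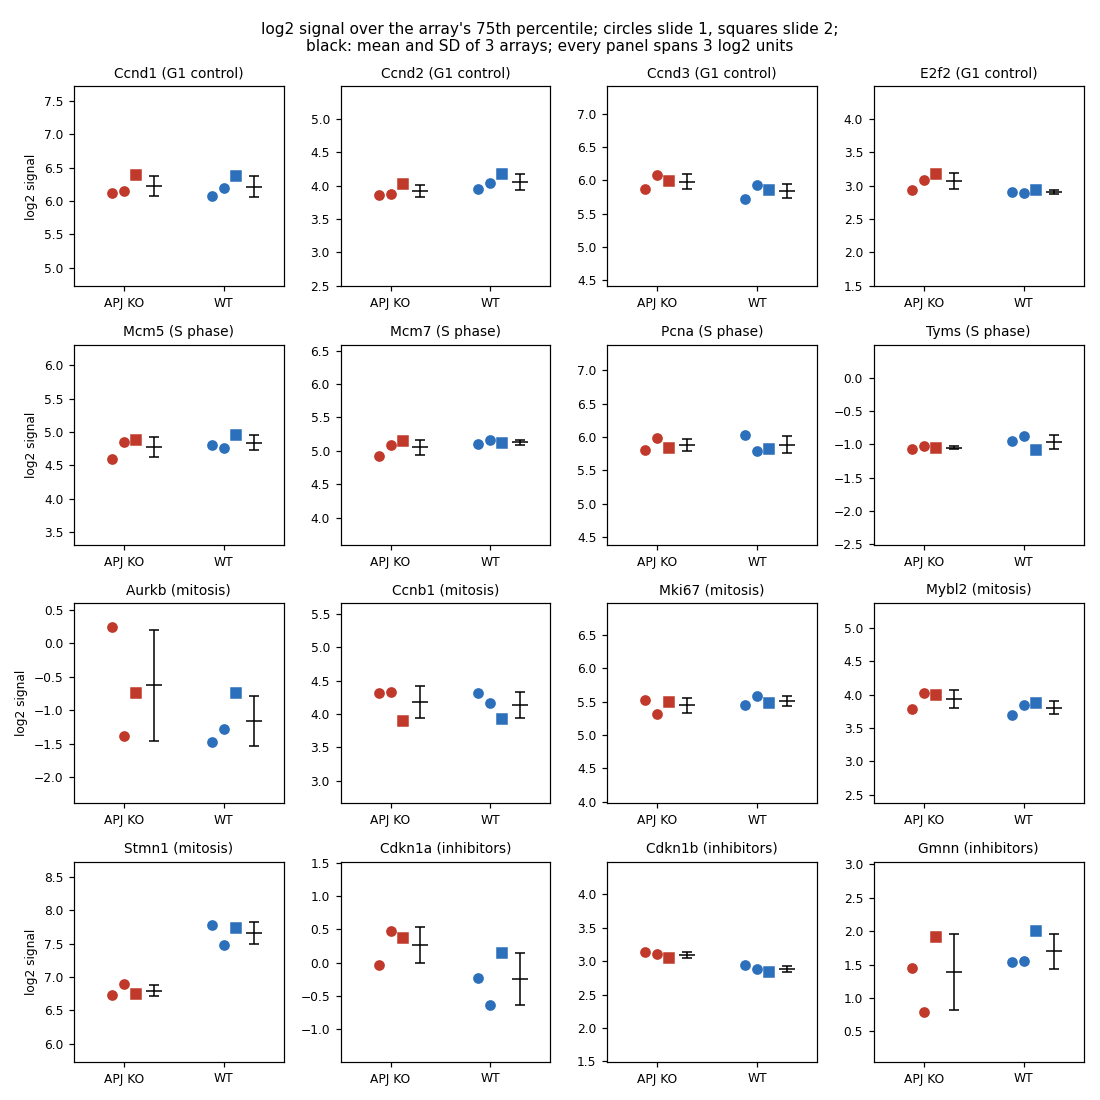
Log2 signal over the array's 75th percentile for the 16 genes given array by array, with knockout left of wild type, circles for slide 1, squares for slide 2, and the mean and SD of 3 arrays in black. Stmn1 separates the genotypes by 0.87 log2 units, Cdkn1b separates them by 0.21, and the high Aurkb value belongs to knockout replicate 1.

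Averaged by phase, the arrays differed little. After each gene was set to its own mean over the 6 arrays, the phase means of every array lay between -0.08 and 0.08. The inhibitors averaged 0.02 to 0.05 on the knockout arrays, against -0.06 to 0.01 on the wild-type arrays, and did not overlap. Their medians did overlap, at -0.02 to 0.05 on the knockout arrays and -0.05 to -0.0026 on the wild-type arrays. Without Cdkn1a, a set chosen after the values were seen, the means overlapped too, and their difference between genotypes was 0.02 in place of 0.07. The S-phase genes averaged -0.08 to 0.07 on the knockout arrays, against -0.02 to 0.05 on the wild-type arrays, and overlapped, as did the G1 and mitotic means. The median differences were -0.02 for G1 control, -0.03 for S phase, 0.05 for mitosis and 0.04 for inhibitors. Within slide 1 and slide 2 they were -0.02 and -0.01 for S phase, 0.05 and 0.02 for mitosis, and 0.06 and 0.10 for inhibitors. For G1 control they were -0.00081 within slide 1 and 0.0096 within slide 2, of unlike sign.

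**Figure D4:**
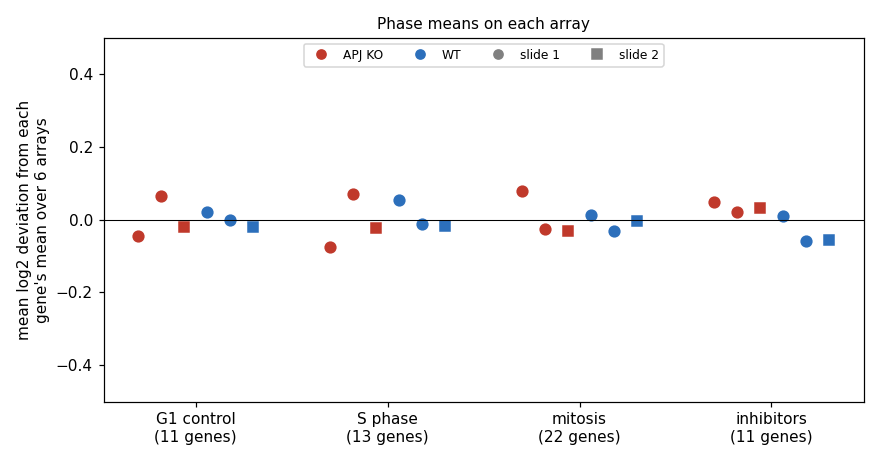
Mean log2 deviation of the tested genes of each phase from their own 6-array means, for every array, knockout in red left of wild type in blue, circles for slide 1 and squares for slide 2. All values lie between -0.08 and 0.08.

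For 15 genes more than 1 probe was tested, and for 8 of them all probes had the same sign. Stmn1 was the only one of the 15 whose probes spread by more than 0.5 log2 units, at 0.73. The 3 Birc5 probes, for instance, ran from -0.28 to -0.0023, and the 3 Cdk1 probes from -0.12 to 0.09. Those spreads exceed the median size of a difference in the list, so signs near 0 carry little weight.

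Slide differences were larger than genotype differences for 43 of the 57 genes, a comparison added after the data were seen. This held for 66.2% of everything tested. With the slide as a term, Cdk1 was higher on slide 2 than on slide 1 by 0.40 ± 0.07 (SE, limma adjusted p = 0.028), and 6.74% of everything tested was higher. Ccnb1 differed by -0.37 (adjusted p = 0.044) and Rb1 by -0.33 (0.047), and 3.8% of everything tested was lower. The arrays of the slides did not overlap for 12 genes higher and 18 lower on slide 2, beside 23.1% and 18.7% of everything tested. Both slides held both genotypes, so the genotype difference could be taken within each. Slide, scan and the animals on each slide cannot be told apart.

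**Figure D5:**
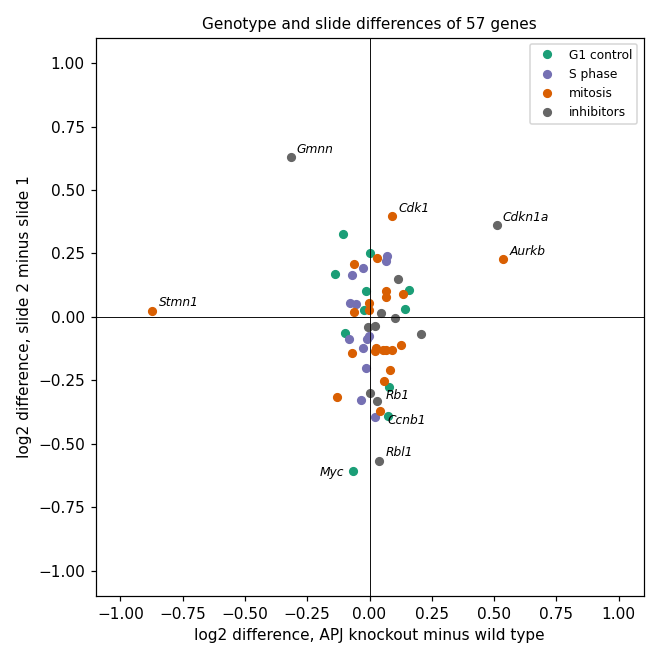
Log2 difference between slides against log2 difference between genotypes for the 57 genes, coloured by phase. Stmn1 lies far along the genotype axis at -0.87, whereas Cdk1, Ccnb1 and Rb1, which passed between slides, lie near 0 on it.

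Outside the list, 108 further genes of replication, mitosis, the RB-E2F-DREAM pathway and the p53 response were examined, and 104 of them were tested. None passed, 46 were above 0 and 58 below, and the median was -0.0091. An unadjusted p under 0.05 was reached by 2 of the 104, beside the 8.02% of everything tested. In the replication group (31 tested) the highest was Gins4, a subunit of the GINS helicase complex, at 0.19, and in the mitotic group (43 tested) the kinetochore gene Ndc80, at 0.17. In the RB, E2F and DREAM group (17 tested) Rbl2, the pocket protein p130, differed by 0.44 ± 0.16 (SE, limma adjusted p = 0.527), and Cdkn1c, which encodes the inhibitor p57, by 0.22. Among p53 targets (13 tested) Phlda3, a repressor of Akt signalling, differed by 0.33 ± 0.11 (SE, limma adjusted p = 0.435) and the antiproliferative gene Btg2 by -0.21. Knockout arrays lay above all wild-type arrays for 2 of the 104, Rbl2 and Phlda3, and below them for 2, the E2F gene E2f3 (-0.10) and the p53 target Aen (-0.18). Over everything tested these shares were 6.37% and 5.86%.

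Markers of other cells the sort could hold were set beside these values, and no marker passed. Knockout arrays did lie above all wild-type arrays for 7 of 9 lymphatic, 6 of 13 macrophage and 3 of 11 platelet markers. The same held for 1 of 9 erythroid and 1 of 9 mural and fibroblast markers, and for 6.37% of everything tested. They lay below all wild-type arrays for 1 of 9 keratinocyte markers, beside 5.86% of everything tested. An unadjusted p under 0.05 was reached by 7 lymphatic, 8 macrophage and 3 platelet markers. It was also reached by 1 erythroid, 1 mural and fibroblast and 1 keratinocyte marker, beside 8.02% of everything tested. The sums that follow take every marker with a probe on the array, tested or not. Of 13 tested macrophage markers 12 were above 0 (median 0.48). Only 8 of the 13 were above background on all 6 arrays. The others passed the filter through 1 genotype alone, so the macrophage counts given here were partly set by the filter. The summed signal of 14 macrophage markers was 53.3 to 54.8 in the knockout and 48.6 to 56.0 in wild type. Bright markers set this sum. The dim Adgre1 and C1qc add little to it, with mean log2 signals of -2.23 and -2.36 in the knockout and -4.30 and -4.27 in wild type. All 9 tested keratinocyte markers were below 0 (median -1.05). The sums of 14 keratinocyte markers were 10.8 to 11.8 in the knockout and 10.6, 17.2 and 36.5 in wild type replicates 1 to 3. Wild type replicate 1 thus lay below every knockout array. All 9 lymphatic endothelial markers were above 0 (median 0.49), with sums of 677 to 754 in the knockout and 625 to 715 in wild type. Platelet markers summed to 8.53 to 10.9 in the knockout and 7.21 to 7.72 in wild type, without overlap. Of the 11 platelet markers 7 were above 0 and 4 below. Erythroid markers (11 summed, 9 tested) summed to 353 to 608 in the knockout and 334 to 581 in wild type. Markers of mural cells and fibroblasts (12 summed, 9 tested) summed to 3.68 to 7.78 in the knockout and 4.68 to 6.60 in wild type. The part of these cells in the Stmn1 and inhibitor values was not tested.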

How the data were processed

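Total RNA was labelled with Cy3 and hybridised to 6 one-colour Agilent arrays. The deposited scanner files hold a linear intensity per spot, background-subtracted and detrended. Per the file headers, the software was Agilent Feature Extraction 10.7.3.1 and the array design follows mm9. The authors' deposited value table is the same intensity times 1 constant per array (2.29 to 3.69), what set it being not given in the sources used here. Its column medians were 66.98, 60.3 and 63.25 for APJ knockout replicates 1 to 3 and 63.46, 62.09 and 65.15 for wild type replicates 1 to 3, so it was linear and not centred by gene.

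From 59305 non-control spots (55681 probes), 126 to 179 outlier spots per array were left out, and 0 were saturated. Log2 intensity minus the array's 75th percentile was averaged over spots of a probe. Accessions were named through RefSeq (GRCm38.p6), which named 47.4% of probes and 97.7% of those with a curated accession. A probe was tested if well above background on every array of at least 1 genotype, and a gene took its brightest tested probe. limma 3.58.1 in R 4.3.3 (lmFit, eBayes) fitted genotype alone, with two-sided p adjusted by Benjamini-Hochberg over 24245 genes and unnamed probes (13452 named), threshold 0.05. The fit was tested on simulated data with independent noise and no slide effect, unlike these arrays.

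Members, lists and tests were chosen with earlier results of these data known. Values on every array are given for genes past the threshold, those with an unadjusted p under 0.05 and no overlap, the 3 largest differences of each phase, and Mki67, Pcna, Ccnb1, Ccnd1 and Cdkn1a. Same-numbered samples deviated together (r = 0.23, 0.15 and 0.65), so the replicate number was used as a block in an alternative fit. The main fit did not use it. On slide 1, pairs with unlike numbers gave 0.36 and 0.28, above the 0.23 and 0.15 of like numbers. Slide 2 held only the pair at 0.65. These values therefore show no pairing by number beyond the slide. Alternatives changed normalisation, background correction, filter, probe choice, block and replicates.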

Additional observations from a re-analysis of the deposited data

How the results depend on the processing

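Arrays, 3 for each genotype, limit what these values can resolve, and 15 alternatives were tried. Stmn1 kept its direction in all 15 (-0.97 to -0.51, adjusted p 0.0277 to 0.283). The list held 0 genes that passed lower with quantile normalisation (Stmn1 adjusted p = 0.0601), with the authors' value table (0.0517), with no filter on dim probes (0.283), with the mean of a gene's probes (0.0888) and with the replicate block (0.111). With 1 array left out it held 0 to 0. No listed gene passed higher under any of the 15. Across everything tested, no filter left 3 higher and 0 lower, the slide as a block gave 185 higher and 101 lower, the replicate block gave 4 higher and 1 lower, and leaving out 1 array gave 11 to 45 higher and 2 to 28 lower. Aplnr stayed at -1.69 with no filter (adjusted p = 0.186) and with the replicate block (0.0787), and ran from -1.84 to -1.57 with 1 array left out (0.0355 to 0.134, passing only without APJ knockout replicate 3). With 1 array left out the median ran from -0.010 to 0.051 over all 57 genes, from -0.05 to 0.02 for G1 control, from -0.086 to 0.014 for S phase, from 0.02 to 0.06 for mitosis and from 0.0027 to 0.10 for inhibitors.

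Of 240 pairs of a named gene and an alternative, 15 changed sign, all in genes near 0, and 11 of the 16 named genes never did. Pcna was 0.028 with quantile normalisation, 0.0053 with the percentile taken over detected probes and 0.013 with the value table, and -0.058 to 0.072 with 1 array left out. Ccnb1 was -0.0067 with normexp background correction and -0.063 to 0.18 with 1 array left out, Mcm5 -0.12 to 0.017, Mki67 -0.10 to 0.0049 and Ccnd1 -0.083 to 0.085. Gmnn ran from -0.58 to -0.02 and Aurkb from 0.10 to 0.92. Normexp used the median spot intensity, an alternative chosen after seeing the data, and its planned form on mean intensity was not run. The replicate block changed no call of a listed gene other than Stmn1. The causes of these changes were not tested, except that fewer samples were used where 1 array was left out.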
